A study of Mus musculus with 6 samples.

Results

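miR-21 and miR-21* are the mature strands, or arms, cut from one hairpin precursor, encoded in mouse by Mir21a. They were taken from the deposited table of mouse microRNAs (miRNAs) by their names, mmu-miR-21 and mmu-miR-21*, and are 2 of its 698 rows. Both were measured by small RNA sequencing of left ventricles from mice older than 50 weeks. 3 libraries came from wild-type (WT) mice and 3 from mice labelled as mutant (aMHC403/+). The genotype is written as a heterozygous one, and the change is R403Q in Myh6, which encodes the alpha-myosin motor of cardiac muscle. HCM in the labels is read as hypertrophic cardiomyopathy, a thickening of the ventricular wall. No treatment other than ageing is named for either group, and the strain and sex of the animals are not stated in the labels. The titles call the libraries biological replicates, and no source says how the animals relate to one another. If any shared a source, p-values measure only the spread between these samples.

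miRNAs guide the Argonaute protein to messenger RNAs, mainly through their seed, and lower the output of those messages. From each hairpin one arm is usually loaded and kept, while the other is mostly degraded, so that its level stays low. In the older naming used by the deposited table the asterisk marks this minor arm. In the heart miR-21 is known as an miRNA abundant in fibroblasts that rises in pressure-loaded and failing ventricles, and Spry1 and Pdcd4 are among its known targets. Messenger RNAs were not measured here.

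The sequences of both arms are shown because the arms act through different seeds (bases 2 to 8, in capitals), together with the closest relatives of miR-21. The arms and the paralogues miR-21b and miR-21c were read from RefSeq (GRCm38.p6), and miR-590-5p from the deposited table with T written as U. All are written 5′ to 3′.
miR-21: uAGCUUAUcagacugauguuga
miR-21*: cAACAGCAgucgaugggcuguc
miR-21b: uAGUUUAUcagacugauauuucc
miR-21c: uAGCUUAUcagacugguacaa
miR-590-5p: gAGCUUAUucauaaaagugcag
The deposited sequences of both arms were identical to those of RefSeq. 2 rows of the table share the seed of miR-21, miR-21 itself and miR-590-5p, and the latter had 0 reads in all 6 libraries. No other row shares the seed of miR-21*. miR-21c begins with the same 15 bases as miR-21. miR-21b has the same base at 18 of the positions but another seed. How reads that end before these paralogues diverge were counted is not stated.

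On GRCm38 the miR-21 sequence lies at chr11:86584120-86584141 and that of miR-21* at chr11:86584082-86584103, both on the minus strand. In GENCODE M21 the 92-base hairpin lies inside exon 12 of the annotated Vmp1 transcript, on the same strand, in its untranslated part. The last coding base lies 1153 bases before its first base. Vmp1 encodes a membrane protein that takes part in autophagy. Folded with RNAfold, the hairpin had a minimum free energy of −46.2 kcal/mol. In this fold 19 of the 22 bases of miR-21 paired with bases of miR-21*, including all 7 bases of its seed, and 16 bases lay between the arms.

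Levels are given as reads per 1000000 miRNA reads of a library (RPM). The WT libraries held 3647223 to 5223636 miRNA reads and the mutant libraries 2483486 to 4267939. The tissue label was checked against miRNAs of heart muscle. Together the 7 rows of that list took 425041 to 503990 RPM in WT libraries and 400921 to 463233 RPM in mutant ones, and none of them was at 0 in all libraries. Most of this came from miR-1 and miR-208a, with means of 266382 and 156220 RPM over all libraries. The other rows ran from 14687 RPM (miR-208b) down to 466 (miR-133a), 4.36 (miR-133b) and 1.87 (miR-133a*). RPM is a share, so a fall of a very abundant miRNA raises all others. In bulk ventricle, fewer cells of a type and less RNA per cell cannot be told apart.

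miR-21, the major arm, stood higher in each mutant than in each WT animal. The WT libraries held 1099, 2206 and 2035 RPM, from 4008, 8206 and 10629 reads. The mutant libraries held 2689, 5498 and 6526 RPM, from 11475, 22840 and 16208 reads. The groups did not overlap, but the lowest mutant, replicate 1, lay only 1.22-fold above the highest WT animal, replicate 2. In all 9 pairs of a mutant with a WT animal the mutant was higher, by 1.22-fold to 5.94-fold with a median of 2.70-fold. As a share of all miRNA reads, miR-21 made up 0.110% to 0.221% in WT and 0.269% to 0.653% in the mutant. Its place among the miRNAs of a library, ordered from the most abundant, was 42, 37 and 35 in the WT libraries, against 34, 28 and 28 in the mutants.

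miR-21*, the minor arm, was scarce in every library and followed the same order. It stood at 3.29, 9.95 and 8.81 RPM in WT, from 12, 37 and 46 reads. In the mutant it stood at 18.3, 25.5 and 39.9 RPM, from 78, 106 and 99 reads. The groups did not overlap, and the closest pair of animals differed by 1.84-fold. Over the 9 pairs the mutant was higher by 1.84-fold to 12.1-fold, with a median of 4.01-fold. The upper end rests on the 12 reads of WT replicate 1, for which the 95% Wilson interval ran from 1.88 to 5.75 RPM. Such intervals cover counting error only. The 6 libraries had the same rank by miR-21* as by miR-21 in 6 of 6 cases, and replicate 1 was the lowest of its group for both arms.

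**Figure D1:**
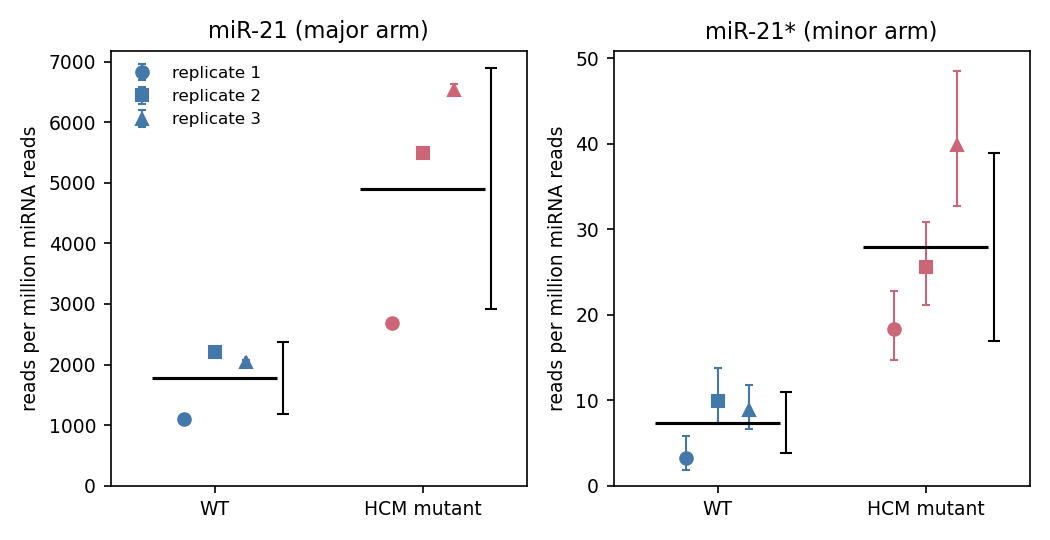
Levels of miR-21 (left) and miR-21* (right) in each library, in RPM on linear axes from 0. Points are libraries with 95% Wilson counting intervals (smaller than the point for most of miR-21), horizontal lines are group means and the bars beside them are SDs (n = 3). All mutant libraries lie above all WT libraries in both panels, and the mutants are more spread out in RPM, from 2689 to 6526 for miR-21.

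Both arms rose in the mutant. For miR-21 the mean ± SD of 3 animals was 1780 ± 596 RPM in WT, against 4904 ± 1987 RPM in the mutants, a ratio of means of 2.76. For miR-21* they were 7.35 ± 3.56 and 27.9 ± 11.0 RPM, a ratio of 3.80. As log2(RPM + 1), where the added 1 shrinks the change of scarce miRNAs, the difference between mutant and WT was 1.43 ± 0.26 (SE) for miR-21, with a 95% interval of 0.91 to 1.95. For miR-21* it was 1.83 ± 0.31, with an interval of 1.19 to 2.47. Each had a Benjamini-Hochberg adjusted p of 2.09e-04 over the 193 miRNAs tested with limma. Taken alone, each arm gave p = 0.1 in a two-sided exact permutation test of RPM, the smallest that 3 against 3 animals allow.

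Against the background of all miRNAs, limma called 10 of 193 higher in the mutant (5.18%), both arms among them. It called 0 lower (0%), with 4 lower at an unadjusted p under 0.05 (2.07%). edgeR called 8 higher and 1 lower and DESeq2 8 and 4. Every mutant lay above every WT animal for 35 miRNAs (18.1% of those tested), so the lack of overlap alone was shared with many others. By log2 difference miR-21* ranked 1 and miR-21 ranked 2 of the 193, against a median of 0.15 for all of them. In RPM the mean of miR-21 was 3124 higher in the mutant, which placed it 7 by that measure, and miR-21*, with a gain of 20.5 RPM, stood at place 66. The minor arm had a WT mean below the filter of 10 RPM and was tested because of its level in the mutant. Without the filter, among 478 rows, it passed as well (limma adjusted p = 0.00207).

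**Figure D2:**
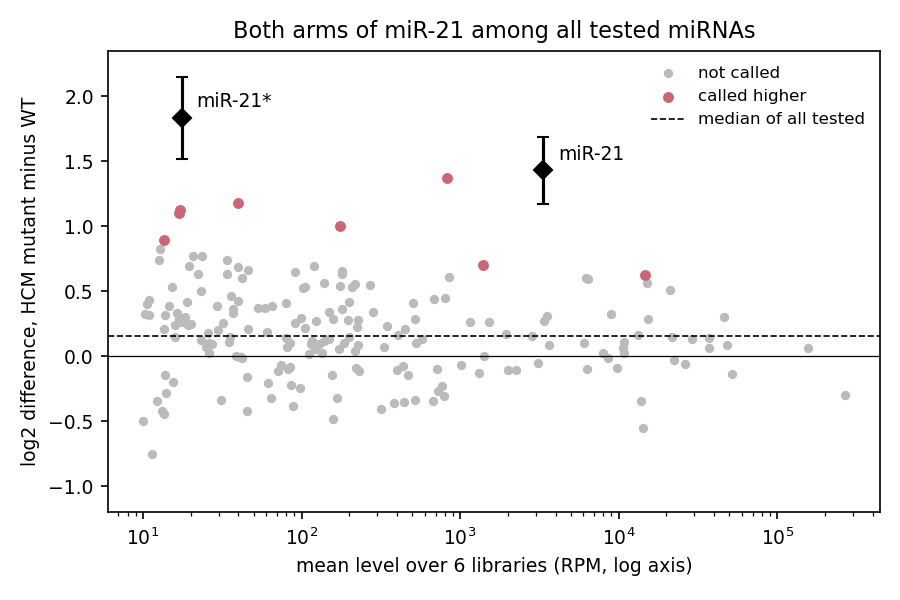
Log2 difference between HCM mutant and WT (vertical) against the mean level over 6 libraries in RPM (horizontal, log axis) for the 193 tested miRNAs. Black diamonds with SE bars are the arms of miR-21, red points are the other miRNAs called higher and the dashed line is the median of all, 0.15. Both arms lie at the top although their mean levels, 3342 and 17.6 RPM, are far apart.

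The arms also varied more between animals of one group than most miRNAs did. The residual SD on the log2 scale was 0.62 for miR-21 and 0.65 for miR-21*, at places 5 and 2 of 193 from the most variable, where the median miRNA had 0.25. For miR-21 the coefficient of variation was 33.5% in WT and 40.5% in the mutant, and the SD between animals was 28.8 and 50.8 times the SD that read counting alone would give. For miR-21* the coefficients were 48.4% and 39.4%, and the SD was only 2.69 and 3.70 times that of counting. The spread of miR-21 thus lay almost wholly between animals or libraries, while for miR-21* counting contributed a larger part.

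In the order of mean levels the neighbours of miR-21 differed by group. In WT it stood at place 38, between miR-28 at 1828 ± 333 RPM and miR-139-5p at 1425 ± 244 RPM. In the mutant it stood at place 30, between let-7a at 6156 ± 894 RPM and miR-24 at 3896 ± 619 RPM. In both groups the SD of miR-21, 596 and 1987 RPM, was larger than the gap to either neighbour. None of these 4 neighbours passed between genotypes, with log2 differences from −0.10 for let-7a to 0.31 for miR-24 (limma adjusted p = 0.812 and 0.406).

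The share of the minor arm was compared because it shows whether the arms changed by different amounts, and it does not depend on the scaling of a library. miR-21* made up 0.299%, 0.449% and 0.431% of the reads of both arms in WT, and 0.675%, 0.462% and 0.607% in the mutant. There were thus 222 to 334 reads of miR-21 for each read of miR-21* in WT and 147 to 215 in the mutant. The groups did not overlap, yet WT replicate 2 and HCM mutant replicate 2 were close together, with 95% Wilson intervals of 0.326% to 0.618% and 0.382% to 0.558%. The mean share was 0.393% ± 0.0821 (SD, n = 3) in WT and 0.581% ± 0.109 (n = 3) in the mutant, with p = 0.1 in a two-sided exact permutation test, the smallest possible.

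A difference in arm ratio was not detected for miR-21. The log2 ratio of the minor to the major arm differed by 0.41 ± 0.27 (SE) between mutant and WT, with a 95% interval of −0.13 to 0.94 (limma adjusted p = 0.386 over 23 precursors with both arms tested). Without a pseudocount, a choice made after seeing the data, it was 0.57 (limma adjusted p = 0.170), and with a pseudocount of 10 RPM, which exceeds the WT level of miR-21*, it turned to −0.31. Among the 23 precursors limma called 0, and 5 at an unadjusted p under 0.05 (21.7%), of which miR-21 was not one. All 5 had a higher ratio in the mutant. miR-125b, miR-199a, miR-30b and miR-99b lay just above the threshold (limma adjusted p = 0.0504 each), and miR-339 further above (0.119). The share of the minor arm was higher in every mutant than in every WT animal for 4 precursors (17.4%), miR-21 and miR-30b among them. The minor arms of miR-21 and miR-30b had WT means below the filter of 10 RPM (7.35 and 9.51). Both entered because of their level in the mutant, which favours a higher share there. By mean share over the 6 libraries, 0.487%, miR-21 was at place 6 from the lowest, within a range from 0.0348% for miR-125b to 34.8% for miR-140.

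**Figure D3:**
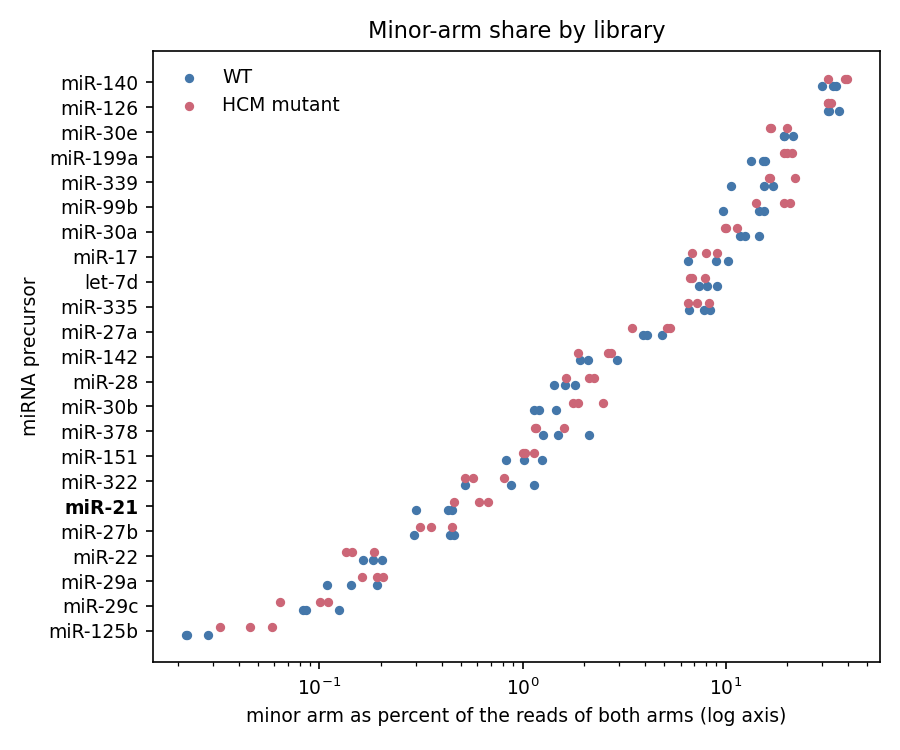
Minor arm as a percent of the reads of both arms (horizontal, log axis) for the 23 precursors with both arms tested, ordered by mean share, with 1 point per library (3 WT in blue, 3 HCM mutant in red). For miR-21, in bold, the mutants at 0.462% to 0.675% lie just above the WT libraries at 0.299% to 0.449%, a shift that is small beside the range between precursors.

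The profiles over the 6 libraries were compared by the root mean square difference of log2(RPM + 1) values, each miRNA centred on its own mean. By this measure the miRNA most like miR-21 was miR-21* (0.28), and the reverse also held, out of 192 others with a median of 0.81 from miR-21. The next were miR-497 (0.29), which has the seed family of miR-15, miR-125b-3p (0.33), the minor arm of a miR-125b precursor, and miR-127 and miR-431 (0.36 and 0.43), which come from the imprinted Dlk1-Dio3 region. For miR-21* they were miR-214, miR-497, miR-125b-3p and miR-199a-5p (0.46, 0.48, 0.50 and 0.56). Like miR-21*, miR-127 and miR-431 had WT means below the filter of 10 RPM (8.70 and 9.42) and were included because of their level in the mutant. The filter thus favours scarce miRNAs that are higher in the mutant. All these points share the same 6 libraries and the same genotype difference, so the likeness describes the shift between groups as well as that between animals. With each group centred on its own mean, which removes the genotype difference, miR-21 was still the nearest to miR-21*, and miR-21* was at place 5 of 192 from miR-21 (0.20, median 0.50).

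miR-497 stood at 85.3, 144 and 118 RPM in WT, against 160, 234 and 314 RPM in the mutants, with all 6 animals in the same order as for miR-21. Its rise on the log2 scale was 0.999 ± 0.26 (SE), with a limma adjusted p of 0.0123. miR-125b-3p rose by 1.10 ± 0.28 (limma adjusted p = 0.0123), whereas miR-127 and miR-431 differed by 0.82 ± 0.28 and 0.74 ± 0.29 and did not pass (limma adjusted p = 0.0747 and 0.118). The calls of miR-497 and miR-125b-3p were each lost when WT replicate 1, WT replicate 3 or HCM mutant replicate 3 was left out (highest adjusted p 0.264 and 0.213, both without HCM mutant replicate 3, limma) and under the 3 other scalings.

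miR-21 is made by many cells of the ventricle, and its level was therefore set against miRNAs that mark other cell types, the most abundant of each list. Against miR-1, which marks heart muscle, there were 0.338, 0.864 and 0.678 reads of miR-21 per 100 in WT and 1.01, 2.21 and 3.22 in the mutant. The mutants were higher in 9 of 9 pairs, and the log2 ratio was higher by 1.73. miR-1 itself stood lower in the mutant by a log2 difference of −0.30 ± 0.14 (SE), with overlapping groups, and did not pass (limma adjusted p = 0.209), so this ratio differed by more than the 1.43 of miR-21 alone. That depends on the marker chosen. The other tested rows of the heart muscle list differed by −0.55 (miR-499), −0.14 (miR-133a), 0.06 (miR-208a) and 0.63 (miR-208b). Against miR-143, which marks smooth muscle, the counts per 100 were 4.74, 8.28 and 6.20 in WT and 9.83, 19.0 and 19.1 in the mutant, again without overlap (log2 1.29). miR-143 differed by 0.14 between genotypes, and miR-145, the other tested row of that list, by −0.30 (limma adjusted p = 0.685 and 0.441). Against miR-486, the most abundant of the red blood cell list, the groups did not overlap either (47.0 to 104 in WT, 111 to 310 in the mutant, log2 1.53). miR-486 had a mean of 2266 RPM over the 6 libraries, far above miR-144 (61.4) and miR-451 (30.9) of that list. How much of it came from red blood cells was not tested. Against the endothelial miR-126-3p, HCM mutant replicate 1 lay inside the WT range (10.6, against 5.73 to 11.9), with the other mutants at 26.9 and 29.1 (log2 1.28).

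The leukocyte and fibroblast-enriched markers, miR-142-3p and miR-214, rose themselves. Against miR-142-3p, which marks leukocytes, there were 108, 183 and 208 reads of miR-21 per 100 in WT and 151, 349 and 356 in the mutant (log2 0.73, higher in 7 of 9 pairs). Against miR-214, a fibroblast-enriched miRNA, there were 293, 347 and 566 in WT and 272, 614 and 389 in the mutant. The groups overlapped, with HCM mutant replicate 1 below all WT animals and replicate 2 above them. The log2 ratio of miR-21 to miR-214 differed by 0.06, with single pairs between −1.05 and 1.07, and the sign turned when any one of WT replicate 1, WT replicate 2 or HCM mutant replicate 2 was left out (−0.14, −0.02 and −0.25). In two-sided exact permutation tests adjusted over the 6 markers, p was 0.2 for miR-1, miR-143 and miR-486, 0.3 for miR-126-3p, 0.36 for miR-142-3p and 0.8 for miR-214, where no unadjusted p below 0.1 was possible.

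**Figure D4:**
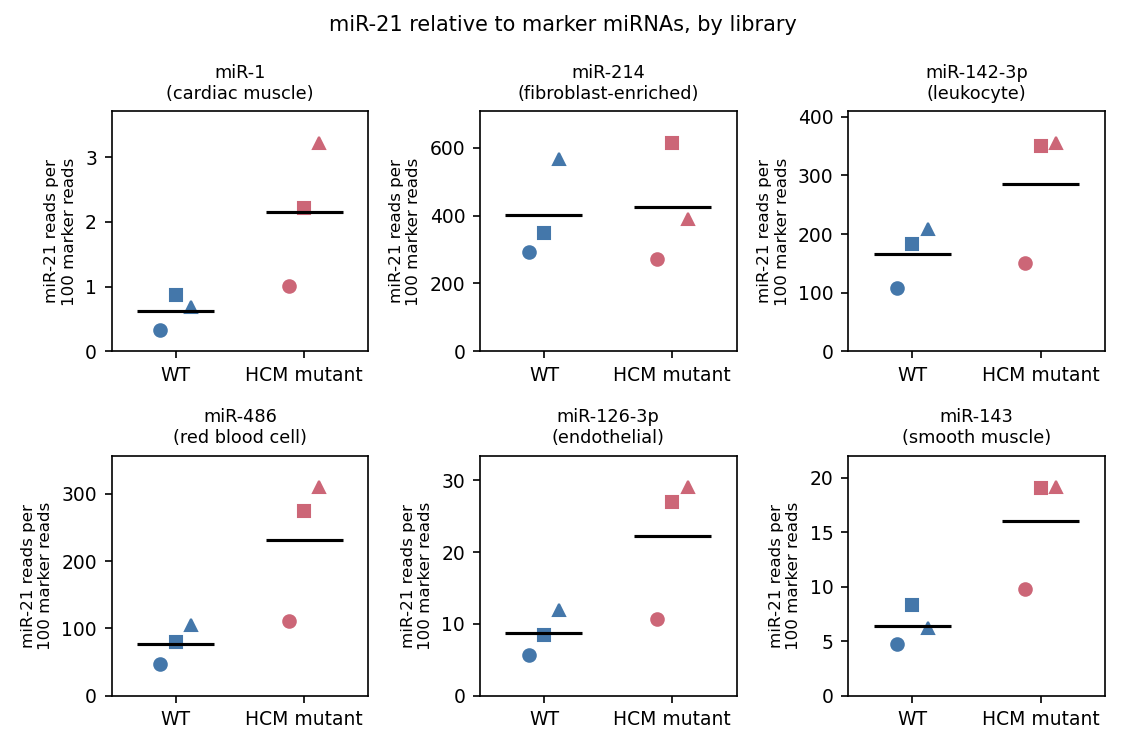
Reads of miR-21 per 100 reads of the most abundant marker miRNA of 6 cell types, by library, on linear axes from 0. Symbols mark replicates 1 (circle), 2 (square) and 3 (triangle), and lines are group means. The groups are apart for miR-1, miR-486 and miR-143 and overlap for miR-214, with means of 402 in WT and 425 in the mutant.

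The whole marker lists moved as follows. Of the fibroblast-enriched list without miR-21, 4 rows were tested, 2 rose, miR-214 by 1.37 ± 0.25 and miR-199a-5p by 1.18 ± 0.25 (limma adjusted p = 2.09e-04 and 0.00220), and the median was 0.91 against 0.15 for all miRNAs tested. The others, miR-199a-3p and miR-199b*, differed by 0.65 and 0.43 and did not pass (limma adjusted p = 0.0823 and 0.346). miR-199a-3p and miR-199a-5p are arms of the same precursor name. The summed level of the list was 546 to 876 RPM in WT, against 1211 to 2035 RPM in the mutants, without overlap. miR-214 made up most of it, at 360 to 636 RPM in WT and 895 to 1679 RPM in the mutants. Of 6 tested leukocyte rows 1 rose, miR-142-3p by 0.70 ± 0.20 (limma adjusted p = 0.0333), with a list median of 0.47 and sums of 1389 to 1818 RPM in WT, against 2177 to 2452 RPM in the mutants. Most of that sum was miR-142-3p itself, at 977 to 1203 RPM in WT and 1574 to 1835 RPM in the mutants. 4 of the 6 differences lay above 0, and those of miR-150 (−0.48) and miR-155 (−0.16, but 0.011 without WT replicate 3) did not pass (limma adjusted p = 0.292 and 0.793). With single libraries left out, the call of miR-142-3p was lost without WT replicate 1, WT replicate 3 or HCM mutant replicate 3 (limma adjusted p = 0.0678, 0.194 and 0.298), and those of miR-214 and miR-199a-5p without WT replicate 3 (0.0699 and 0.0566). Over all other settings miR-142-3p passed in 12 of 17, miR-214 in 16 of 17 and miR-199a-5p in 15 of 16. The fibroblast-enriched and leukocyte sums were thus higher in the mutants, as miR-21 was, and their part in its rise was not tested. Within groups the order of animals differed. miR-214 and miR-142-3p were lowest in WT replicate 3 and HCM mutant replicate 2, whereas miR-21 was lowest in replicate 1 of each group. The summed endothelial, smooth muscle and red blood cell lists overlapped between groups, and of their 2, 2 and 3 tested rows limma called 0, with 0 at an unadjusted p under 0.05 and 0 by edgeR or DESeq2. Of 5 tested rows of heart muscle, 1 was higher, miR-208b (0.63 ± 0.18, limma adjusted p = 0.0282), which passed in 6 of 17 other settings. Its call was lost with edgeR and DESeq2 and without WT replicate 1 or 3 or HCM mutant replicate 2 or 3 (highest limma adjusted p = 0.388). The median of that list was −0.14, with 2 of 5 differences above 0 and 2 lower at an unadjusted p under 0.05, miR-1 and miR-499, a miRNA encoded in a myosin gene. miR-499 stood at 16252, 17711 and 16949 RPM in WT, against 12600, 12871 and 9620 RPM in the mutants, without overlap. Its log2 difference of −0.55 ± 0.17 (SE) did not pass (limma adjusted p = 0.0559), but it passed in 8 of 17 other settings, among them edgeR and DESeq2, each of which called 1 row of the list lower.

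Other miRNAs linked to remodelling and fibrosis were counted by their reported role. Of the 7 tested rows of miRNAs reported as pro-fibrotic or raised in remodelling beside miR-21, 3 were called higher (miR-214, miR-199a-5p and miR-208b), or 2 by edgeR and 2 by DESeq2, against 5.18% called higher among all 193. The 4 tested fibroblast-enriched rows and miR-208b of the heart muscle list belong to this list too. All 3 calls therefore repeat calls given above and add no separate evidence. All 7 differences lay above 0, with a median of 0.63, where 137 of the 193 tested lay above 0 with a median of 0.15, although that of miR-34a turned below 0 after median-of-ratios scaling (−0.046), with DESeq2 (−0.051) and without WT replicate 1 (−0.035). miR-132, reported to act in heart muscle growth, differed by 0.53 and miR-34a by 0.14, and neither passed (limma adjusted p = 0.180 and 0.807). Of the 21 tested rows of anti-fibrotic miRNAs, among them the miR-29 and miR-30 families, limma called 0 in either direction, with 0 higher and 1 lower at an unadjusted p under 0.05. The lower row was miR-29c, at 14612 to 16276 RPM in WT against 11505 to 12985 RPM in the mutants, without overlap. Its log2 difference was −0.35 ± 0.17 (SE, limma adjusted p = 0.225). edgeR called 0 and DESeq2 called 1 lower. The median of that list was −0.05, with 8 of 21 above 0, against the same 137 of 193 and 0.15. Minor arms were counted in every list, here among them miR-29a*, miR-29c* and miR-30a*. The role reported for a major arm need not hold for its minor arm, which has another seed.

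Within 2000000 bases of the miR-21 hairpin the table held 3 other miRNA rows. miR-301a, 528846 bases away and on the other strand, stood at 61.1, 77.4 and 87.5 RPM in WT, against 64.4, 102 and 85.4 RPM in the mutants. Its groups overlapped, and it did not pass (0.14 ± 0.25, limma adjusted p = 0.807). The arms miR-142-3p and miR-142-5p lie 1172706 bases away. miR-142-3p rose, as given above, and miR-142-5p, at a mean of 24.9 ± 3.96 (SD of 3) in WT and 42.5 ± 7.89 RPM in the mutant, did not pass (0.74 ± 0.26, limma adjusted p = 0.0747).

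The rise of miR-21* passed in all 16 other settings that tested it, and that of miR-21 in 16 of 17. Without WT replicate 3 the log2 difference of miR-21 was 1.56 and the adjusted p 0.0566 (limma). The adjusted p of miR-21 in all alternatives (limma, edgeR or DESeq2) lay between 1.08e-13 and 0.0566. That of miR-21* lay between 2.58e-10 and 0.0417, so its weakest alternative passed only narrowly. Scalings that brought the median of all miRNAs from 0.15 to between −0.02 and 0.05 left miR-21 at 1.25 to 1.32 and miR-21* at 1.67 to 1.80.

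**Figure D5:**
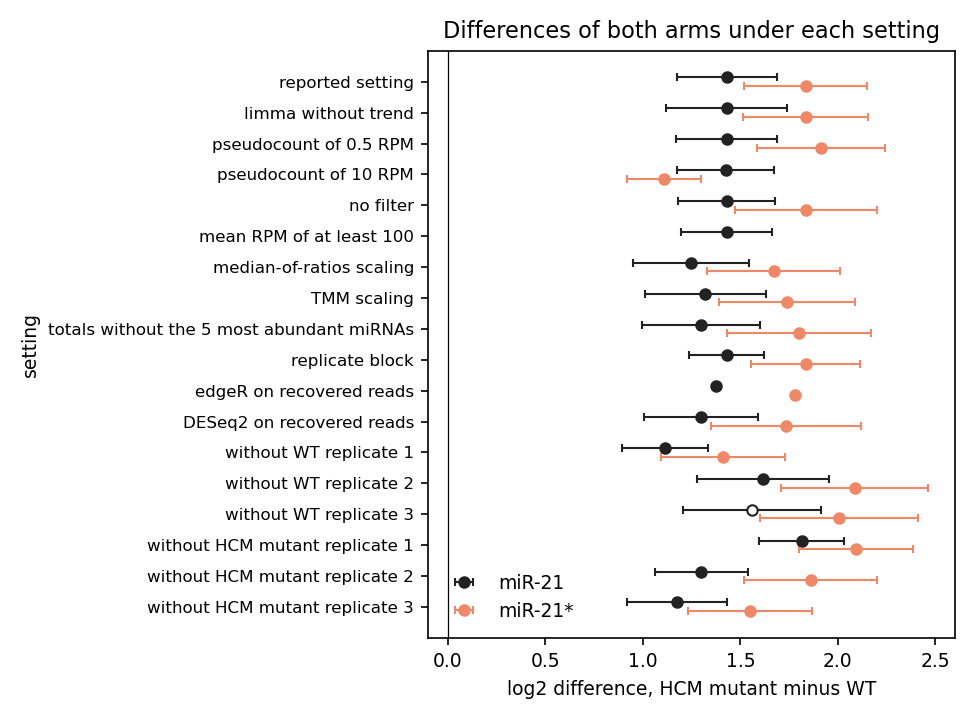
Log2 difference between HCM mutant and WT (horizontal) for miR-21 (black) and miR-21* (orange) under the reported setting and 17 others (vertical). Bars are SEs (edgeR gives none), filled points have an adjusted p under 0.05 and the open point, miR-21 without WT replicate 3, does not. miR-21* was below the filter of 100 RPM and has no point there, and it lies above miR-21 except with a pseudocount of 10 RPM.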

How the data were processed

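The members and lists were chosen with earlier results of these data known. Per the labels' protocols, RNA came from a kit for miRNA isolation and the libraries were multiplexed. The values the authors deposited are RPM, reads per 1000000 miRNA reads of the library; the file header names them only as normalised, and the unit was read from the values. Dividing by the smallest value of each library gave whole reads for 100% of values (tolerance 0.02 reads). No aligner, counter, miRNA release, genome build or rule for multiply mapping reads is stated.

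Rows with a mean RPM of at least 10 over the 6 libraries entered limma 3.58.1 (trend, R 4.3.3) as log2(RPM + 1), two-sided, without covariates, with Benjamini-Hochberg adjustment over 193 rows and a threshold of 0.05. Arm ratios were tested likewise over 23 precursors, with arms paired by name. Errors are limma's moderated SEs. The named miRNAs were both arms, rows sharing their seeds or lying within 2000000 bases, the 5 most alike, the neighbours in rank, the list members, and the precursors with the lowest and highest minor-arm share. Lists came from general knowledge. The steps were tested on simulated data. edgeR 4.0.16 called 8 higher and 1 lower on recovered reads. Other software was DESeq2 1.42.0, scipy 1.17.1 in Python 3.11.15, pandas 2.3.3, RNAfold 2.7.2 and, for figures, matplotlib 3.10.9. Positions and sequences are from GENCODE M21 and RefSeq (both GRCm38). 2 lines of the file were emptied for this work and were not analysed here.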

Additional observations from a re-analysis of the deposited data

How the results depend on the processing

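The log2 differences of both arms kept their direction in every alternative run. The range for miR-21 was 1.11 to 1.81, and that for miR-21* was 1.11 to 2.09. With each library left out in turn the ranges were 1.11 to 1.81 and 1.41 to 2.09, and the call of miR-21 was lost without WT replicate 3. The number of miRNAs called higher (10) was 4 after median-of-ratios scaling, 6 after TMM scaling, 6 with totals without the 5 most abundant miRNAs, and 1 to 22 with single libraries left out: 5, 22 and 1 when WT replicates 1, 2 and 3 were left out, and 21 when HCM mutant replicate 1 was. Those called lower (0) were 2 without a filter, 1 with a mean of at least 100 RPM, 1 under each of these 3 scalings, 1 with edgeR, 4 with DESeq2 and 0 to 3 with single libraries left out. The cause was not tested.

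The arm ratio of miR-21 lay between 0.28 and 0.56 with single libraries left out and was −0.31 with a pseudocount of 10 RPM. The precursors with a called arm ratio (0) were 2 without trend, 4 with a pseudocount of 0.5 RPM, 4 with none (chosen after seeing the data) and 0 to 2 with single libraries left out (2 without HCM mutant replicate 1). With single libraries left out, the ratio of miR-21 to miR-214 lay between −0.25 and 0.34 and turned to −0.14, −0.02 and −0.25 in 3 cases. The log2 ratios to the other 5 markers kept their sign, between 0.44 and 2.19.

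For 18 other named miRNAs, 248 alternative values kept side and direction, 31 no longer passed and 13 newly passed. 7 changed sign without passing: miR-301a was −0.037 after median-of-ratios scaling and −0.033 with DESeq2, with −0.0072 to 0.32 when single libraries were left out, and miR-34a was −0.046 and −0.051 with −0.035 to 0.34. miR-155 lay between −0.25 and 0.011 with single libraries left out.

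The labels share replicate numbers but do not say that they pair animals, and the deviations of same-numbered libraries correlated at 0.51, −0.07 and 0.18. With the replicate block 16 miRNAs were called higher and 1 lower and 6 arm ratios changed. The differences of both arms and the arm ratio of miR-21 were the same size (1.43, 1.83 and 0.41; limma adjusted p = 1.10e-10, 1.17e-08 and 0.340). Not every library correlated best with its own number. Depth limits miR-21*, with 12 reads in the lowest library.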
